A study of Homo sapiens with 36 samples.

Results

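The miRNAs in cell lysates were compared between cells that expressed WT-AGO2 and cells that expressed one of the 4 variants F182del, N359H, G604R and D619N. The libraries were chosen by their labels as the input (lysate) libraries of these 5 groups, 15 of the 36 libraries of the series, with 3 replicates of each group. All were made from HEK293T cells, a human line derived from embryonic kidney, that were transfected with a vector for Flag/HA-tagged AGO2, either WT-AGO2 or a variant, together with the green fluorescent protein vector pEGFP-C1. The input was a small sample of the cleared lysate, taken before the tagged protein was immunoprecipitated (IP) with an anti-HA antibody, so it held the miRNAs of the whole cell extract. The cells kept their own AGO2 and other Argonaute proteins, and the extract was not limited to cells that took up the vector. A lower level of a miRNA in each cell and fewer cells with it cannot be told apart in such extracts. The lysates answer whether an expressed variant goes with another set of cellular miRNAs, which is the background against which binding in IP is read.

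Argonaute proteins hold small RNAs and use them to find target mRNAs. A miRNA hairpin is cut by Drosha and Dicer into a duplex, of which AGO2 keeps the guide strand and releases the passenger strand, and the seed at bases 2 to 8 of the guide pairs with the target. Loading into Argonaute also protects the guide from decay, so that the pool of mature miRNAs in a cell depends on its Argonaute proteins. F182 lies in the linker between the N-terminal and the PAZ domains, N359 in the second linker, and G604 and D619 in the PIWI domain that holds the catalytic centre of AGO2. Variants of AGO2 are known from a neurodevelopmental disorder, Lessel-Kreienkamp syndrome.

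The deposited values covered 135 mature miRNAs in the nomenclature of MirGeneDB, in which the number names the family, P and a letter the paralogue, and an asterisk the passenger strand. Names are given here without the prefix for human. Of the 135 miRNAs, 23 matched a mature sequence of RefSeq (GRCh38.p14) by number and arm, and no seed was shared among them. The following sequences are those of a highly abundant guide (Mir-191_5p), of a guide that was listed at 0 in all G604R lysates (Mir-197_3p), of a guide with low values for F182del (Mir-589_5p), and of miRNAs that differed between a variant and WT-AGO2 in IP (Mir-423_5p, Mir-423_3p, Mir-671_3p, Mir-345_5p, Mir-1307_5p and Mir-577_5p). Bases 2 to 8, the seed, are in capitals.
Mir-191_5p: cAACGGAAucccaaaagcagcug
Mir-197_3p: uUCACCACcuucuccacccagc
Mir-589_5p: uGAGAACCacgucugcucugag
Mir-423_5p: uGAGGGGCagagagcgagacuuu
Mir-423_3p: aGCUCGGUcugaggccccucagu
Mir-671_3p: uCCGGUUCucagggcuccacc
Mir-345_5p: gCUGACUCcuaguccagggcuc
Mir-1307_5p: uCGACCGGaccucgaccggcu
Mir-577_5p: uAGAUAAAauauugguaccug
In GENCODE version 29, Mir-191_5p (chr3:49020672-49020694, minus strand) lay in an intron of DALRD3, Mir-577_5p (chr4:114656774-114656794, plus strand) in an intron of UGT8 and Mir-589_5p (chr7:5495873-5495894, minus strand) in an intron of FBXL18. Mir-197_3p (chr1:109598940-109598961, plus strand) overlapped an untranslated region of GNAI3, Mir-1307_5p (chr10:103394341-103394361, minus strand) one of ATP5MD and both strands of Mir-423 (chr17:30117095-30117117 for 5p and chr17:30117131-30117153 for 3p, plus strand) one of NSRP1. Mir-671_3p (chr7:151238488-151238508, plus strand) overlapped coding sequence of CHPF2, and Mir-345_5p (chr14:100307876-100307897, plus strand) lay in no other annotated gene.

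The libraries differed widely in depth. From the steps of the deposited RPM (reads of a miRNA scaled to total reads of the library), the total was between 575821 and 4162450 reads in 12 libraries, of which between 1360 and 12040 were reads of mature miRNAs. Replicate 1 of N359H, G604R and D619N held 148205, 9395 and 17118 reads in total, and 2110, 446 and 817 reads of mature miRNAs. These shallow libraries stood apart also in their composition, with 10 of 135 miRNAs (7.41%) outside the range of the 12 deeper libraries. Among the 10, Let-7-P2a1_5p, Let-7-P1d_5p and Let-7-P2a2_5p shared all values, as did Mir-19-P2c_3p and Mir-19-P2a_3p. Mir-186_5p took between 2.02 and 3.13% of mature reads in the shallow and between 3.71 and 5.46% in the deeper libraries, and Mir-17-P1a_5p was listed at 0 in the shallow ones but between 0.193 and 0.733% in the others. Let-7-P2a1_5p, of the let-7 family of differentiation-linked miRNAs, took between 0.806 and 1.22% in the shallow and between 0.343 and 0.713% in the deeper libraries. In IP of WT-AGO2 Let-7-P2a1_5p took between 0.0491 and 0.202%, and Mir-186_5p between 4.52 and 10.96%. What set the shallow libraries apart was not tested. The shares, the calls and the most abundant miRNAs are given with and without the shallow libraries. Many values of rarer miRNAs, of families and of miRNAs called in IP are given only with them. An extreme value with a variant may thus be that of a shallow library.

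Of 4 family names chosen as abundant in HEK293T, 3 were listed and the name Mir-25 was not. Whether miR-25 is listed under another family name was not checked, so its absence does not follow. The Mir-17, Mir-92 and Mir-10 families made up between 56.2 and 60.8% of mature reads with WT-AGO2 and between 51.8 and 59.4% with the variants. The families chosen as markers of hepatocytes (Mir-122), muscle (Mir-1, Mir-133 and Mir-208), neurons (Mir-124 and Mir-9), blood cells (Mir-142, Mir-150 and Mir-223), erythroid cells (Mir-451), epithelium (Mir-205 and Mir-203), mesenchymal cells (Mir-143 and Mir-145) and pluripotent cells (Mir-430) were not among the 135 miRNAs and were not analysed here. Mir-375_3p, which marks endocrine cells, reached at most 0.107%. The passenger strand of the endothelial Mir-126, Mir-126-P2-v1_5p*, reached at most 0.383% with WT-AGO2 and 1.12% with a variant, in the shallow G604R library.

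The share of mature miRNA reads in total reads overlapped between each variant and WT-AGO2, and no difference passed a test. The share of WT-AGO2 was 0.571, 0.237 and 0.231% in replicates 1 to 3, and the 3 F182del libraries, at 0.288, 0.302 and 0.272%, lay inside that range. For N359H the share was 1.42, 0.289 and 0.253%, for G604R it was 4.75, 0.234 and 0.236%, and for D619N it was 4.77, 0.304 and 0.358%. Each of the 3 shallow libraries was above every other library, and each of the 9 deeper variant libraries lay between the lowest and the highest WT-AGO2 library.

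**Figure D1:**
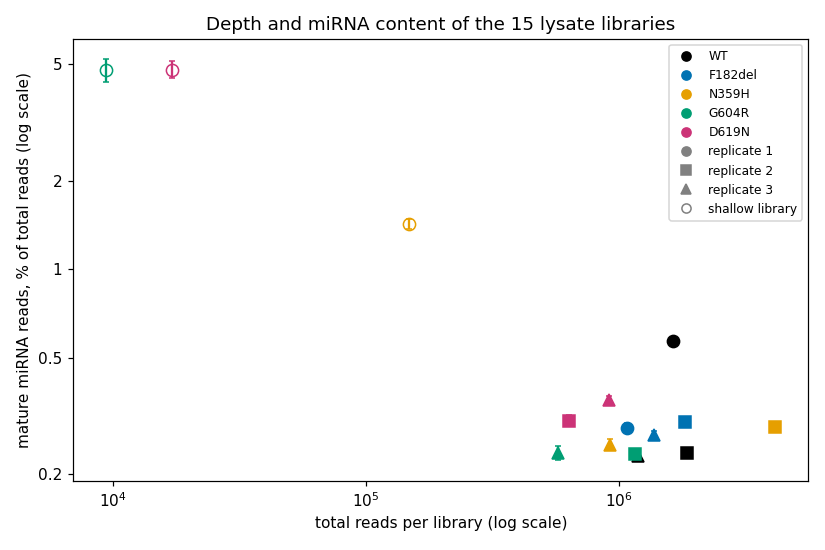
Share of mature miRNA reads in percent of total reads (y axis, log scale) against total reads (x axis, log scale) for the 15 lysate libraries, coloured by group, with 95% Wilson intervals for counting error. The 3 open circles, replicate 1 of N359H, G604R and D619N, sit at 148205 reads or fewer and at 1.42% or more, while the other 12 libraries sit between 0.231 and 0.571%.

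F182del had a mean share of 0.287% ± 0.0150 (SD, n = 3) against 0.346% ± 0.195 (SD, n = 3) with WT-AGO2, a ratio of 0.829 (exact permutation test, two-sided, p = 1). The means of N359H (0.655% ± 0.666, SD, n = 3), G604R (1.74% ± 2.60, SD, n = 3) and D619N (1.81% ± 2.56, SD, n = 3) were 1.89, 5.02 and 5.23 times that of WT-AGO2, with exact permutation p = 0.5, 0.7 and 0.5, and 0.1 is the smallest p that 3 libraries against 3 can give. Over the 12 variant libraries the ratio was 3.24 (exact permutation test, two-sided, p = 0.741, with 0.0022 the smallest possible), and Benjamini-Hochberg adjustment over the 5 comparisons gave 0.926 for N359H, G604R, D619N and all variants together and 1 for F182del. Paired by replicate number, N359H and D619N were above WT-AGO2 in 3 of 3 pairs (exact permutation p = 0.25 for each, the smallest that 3 pairs can give). Without the 3 shallow libraries the ratio over all variants turned to 0.814 (exact permutation p = 0.314), and without WT-AGO2 replicate 1 that of F182del turned to 1.23 (exact permutation p = 0.1). Without replicate 1 of every group, WT-AGO2 included, the ratios were 1.42 for D619N, 1.23 for F182del, 1.16 for N359H, 1.01 for G604R and 1.20 over all variants (exact permutation p = 0.156 for the last). The direction of the difference thus depended on which replicate 1 libraries were kept.

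The same miRNAs led every lysate. Mir-10-P1c-v1_5p, a guide of the Mir-10 family, was the most abundant miRNA in each of the 15 libraries. It took 23.1, 22.9 and 21.3% of mature reads with WT-AGO2, 18.6, 23.4 and 20.1% with F182del, 15.5, 22.1 and 19.1% with N359H, 14.8, 21.9 and 20% with G604R, and 15.5, 23.4 and 21.2% with D619N. Its 3 values under 18% were those of the shallow libraries, and the 9 deeper variant libraries overlapped WT-AGO2. The difference of all variants from WT-AGO2 was -0.35 ± 0.22 (SE) on the log2 scale with a 95% interval from -0.82 to 0.11, and -0.20 ± 0.12 (interval from -0.46 to 0.07) without the shallow libraries. Log2 differences here and below are of mean log2(scaled RPM + 1), variant minus WT-AGO2, where scaled means median-of-ratios scaling between libraries, and they understate the change of low miRNAs.

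Mir-10-P1b-v1_5p, of the same family, took 11.7, 12.8 and 9.61% with WT-AGO2 and between 8.44 and 13.6% in the deeper variant libraries. In the shallow libraries it was at 6.97% (N359H), 5.83% (G604R) and 4.16% (D619N), and its difference over all variants moved from -0.44 ± 0.34 (SE) to -0.16 ± 0.18 when they were left out. Mir-186_5p behaved in the same manner, with -0.37 ± 0.33 over all libraries and -0.08 ± 0.14 without the shallow ones. For all 3 miRNAs the interval included 0 in each comparison.

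Mir-92-P1a_3p and Mir-92-P1c_3p, guides of the family to which the oncogenic Mir-17 to Mir-92 cluster contributes, had nearly the same values in every library and may share reads. Mir-92-P1a_3p took 6.99, 9.03 and 9.69% with WT-AGO2, 9.95, 7.17 and 10.03% with F182del, 10.9, 8.31 and 9.64% with N359H, 10.1, 8.15 and 10.96% with G604R, and 12.6, 8.25 and 8.86% with D619N. The groups overlapped, and its difference over all variants was 0.01 ± 0.18 (SE), with an interval from -0.35 to 0.38.

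Mir-148-P1_3p, which targets the DNA methyltransferase DNMT1, was at 2.89, 2.81 and 2.51% with WT-AGO2 and between 1.995 and 3.51% with the variants, a difference of -0.03 ± 0.18 (SE). Mir-92-P1d_3p (-0.05 ± 0.21), Mir-378_3p (0.09 ± 0.26), Mir-191_5p (-0.15 ± 0.25), Mir-22-P1b_3p (-0.23 ± 0.21) and Mir-27-P2_3p (-0.24 ± 0.24) had differences over all variants whose intervals included 0. None of these 11 abundant miRNAs, the 10 highest by mean RPM and Mir-191_5p by share of mature reads, passed the test in any comparison, and the lowest adjusted p of limma among them was 0.587, for Mir-22-P1b_3p with G604R, and 0.383 without the shallow G604R library, for Mir-27-P2_3p. The interval lay within 1 log2 unit of 0 for 11 of 11 with F182del, 11 with N359H, 8 with G604R, 8 with D619N and 9 over all variants, and for 11 over all variants without the shallow libraries.

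**Figure D2:**
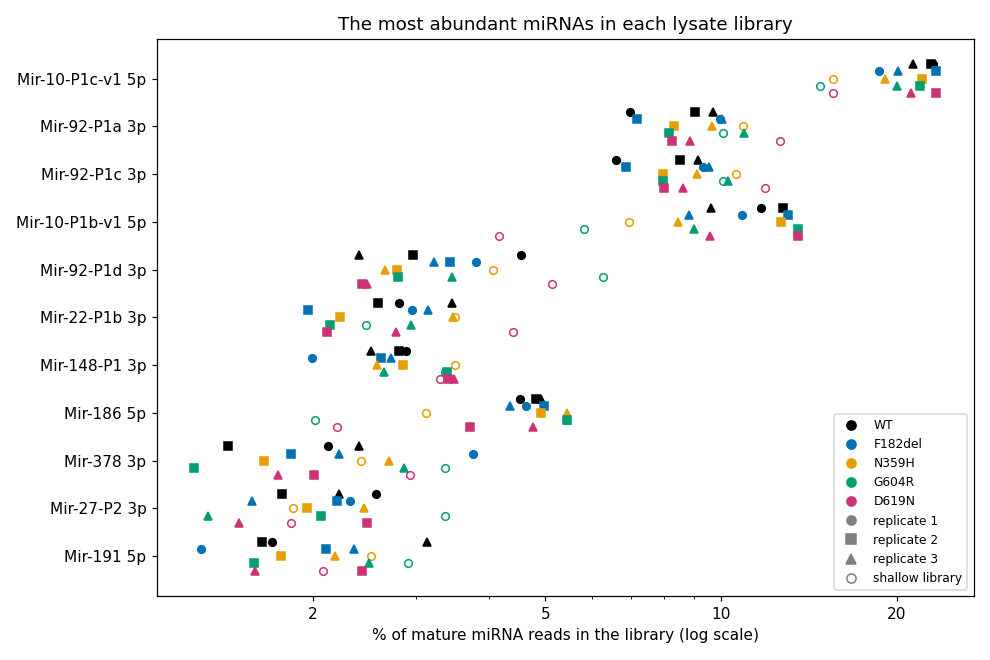
Percent of mature miRNA reads (x axis, log scale) of 11 abundant miRNAs in each of the 15 lysate libraries, coloured by group, with the replicate number as the symbol and open circles for the 3 shallow libraries. Filled symbols of variants and WT-AGO2 overlap for each miRNA, and the open circles lie lowest for Mir-10-P1c-v1_5p (14.8 to 15.5%), Mir-10-P1b-v1_5p (4.16 to 6.97%) and Mir-186_5p (2.02 to 3.13%).

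**Figure D3:**
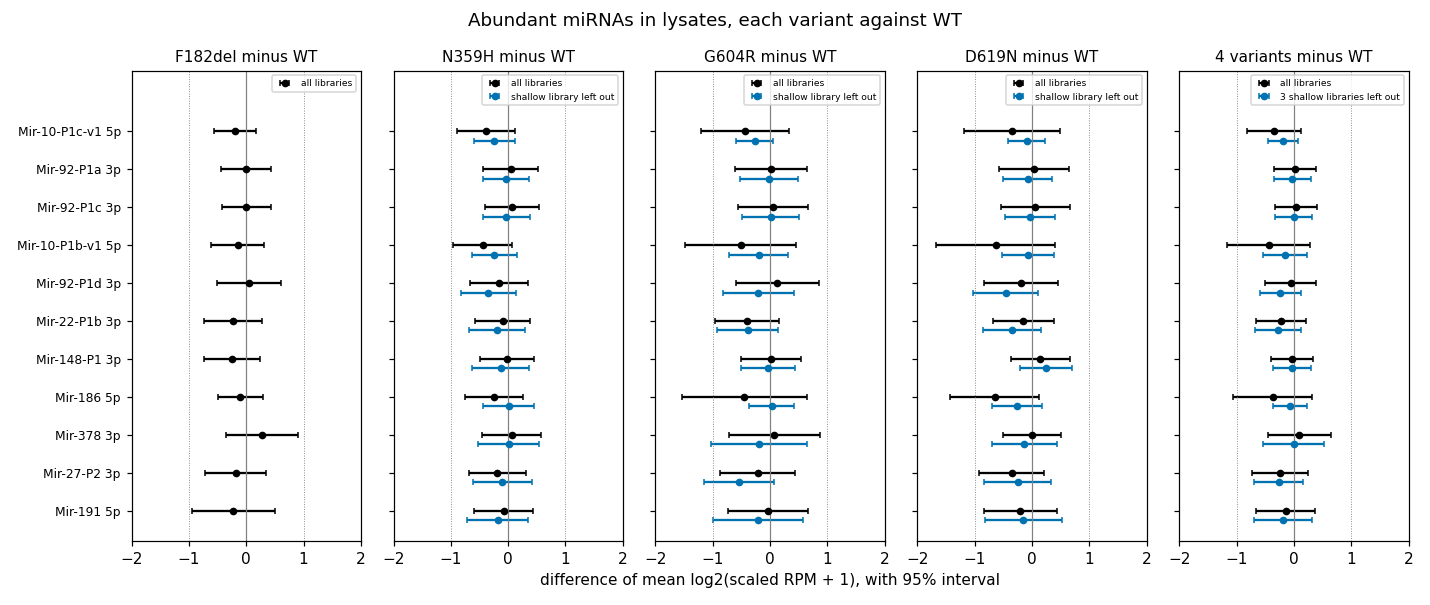
Difference of mean log2(scaled RPM + 1), variant minus WT-AGO2, with 95% intervals from limma (x axis) for the same 11 miRNAs in the 4 single comparisons and over all variants, with all libraries (black) and without the shallow libraries (blue). Every interval includes 0, and dotted lines mark 1 log2 unit either way.

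No miRNA was called different in the lysate between a variant and WT-AGO2. A call by limma needed an adjusted p under 0.05 together with a log2 difference of more than 1 in either direction. For F182del limma called 0 of the 114 miRNAs tested (0.0%), while the unadjusted p was under 0.05 for 9 (7.89%). The counts were 0 of 106 (0.0%) and 2 (1.89%) for N359H, 0 of 106 (0.0%) and 11 (10.4%) for G604R, 0 of 105 (0.0%) and 4 (3.81%) for D619N, and 0 of 118 (0.0%) and 4 (3.39%) over all variants. The lowest adjusted p was 0.474, 0.826, 0.0607 and 0.794 for the variants in this order and 0.0597 over all variants, and other settings called between 0 and 11 miRNAs for G604R, 0 and 5 for D619N, 0 and 2 over all variants and 0 for F182del and N359H. When 1 library was left out, calls were made for G604R without WT-AGO2 replicate 1, 2 or 3 (7, 11 and 10), for D619N without WT-AGO2 replicate 3 (5), and over all variants without F182del replicate 3 (1), N359H replicate 2 (1) or D619N replicate 2 (2). With all libraries, a pseudocount of 0.5 RPM gave 5 calls for G604R and 1 over all variants, and the replicate block gave 1 for D619N. The main fits did not pair libraries by replicate number. With the block, the unadjusted p of limma was under 0.05 for 9 miRNAs with F182del, 8 with N359H, 16 with G604R, 7 with D619N and 4 over all variants. The 3 libraries of a variant did not overlap WT-AGO2 for 9 (7.89%), 8 (7.55%), 9 (8.49%) and 7 (6.67%) of the tested miRNAs, and the 12 variant libraries together overlapped WT-AGO2 for each of 118 (0 apart, 0.0%). These comparisons share the 3 WT-AGO2 libraries. Nothing in the labels says that replicates came from separate cultures, so p-values measure the spread between these libraries, which may be technical.

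The miRNAs with an unadjusted p below 0.05 were rare ones. For G604R all 11 were lower than WT-AGO2 and rested on between 7 and 55 reads over the 6 libraries (median 13), and 8 of them were listed at 0 in all 3 G604R libraries. All 11 passed the filter through WT-AGO2 alone, so their shared direction follows from the filter and is not a result. For F182del 6 were higher and 3 lower, on between 8 and 35 reads. Of these, 2 were listed at 0 in every F182del library, and their sign was likewise set by the filter. Over the 5 comparisons only 1 of these miRNAs, Mir-10-P2b_5p with D619N, had a mean of at least 10 scaled RPM. Among the better measured miRNAs, those with such a mean, intervals lay within 1 log2 unit of 0 for 29 of 42 with F182del, 33 of 48 with N359H, 17 of 50 with G604R, 16 of 56 with D619N and 27 of 55 over all variants. Without the shallow libraries they did so for 26 of 40 with N359H, 21 of 39 with G604R, 22 of 43 with D619N and 32 of 40 over all variants.

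**Figure D4:**
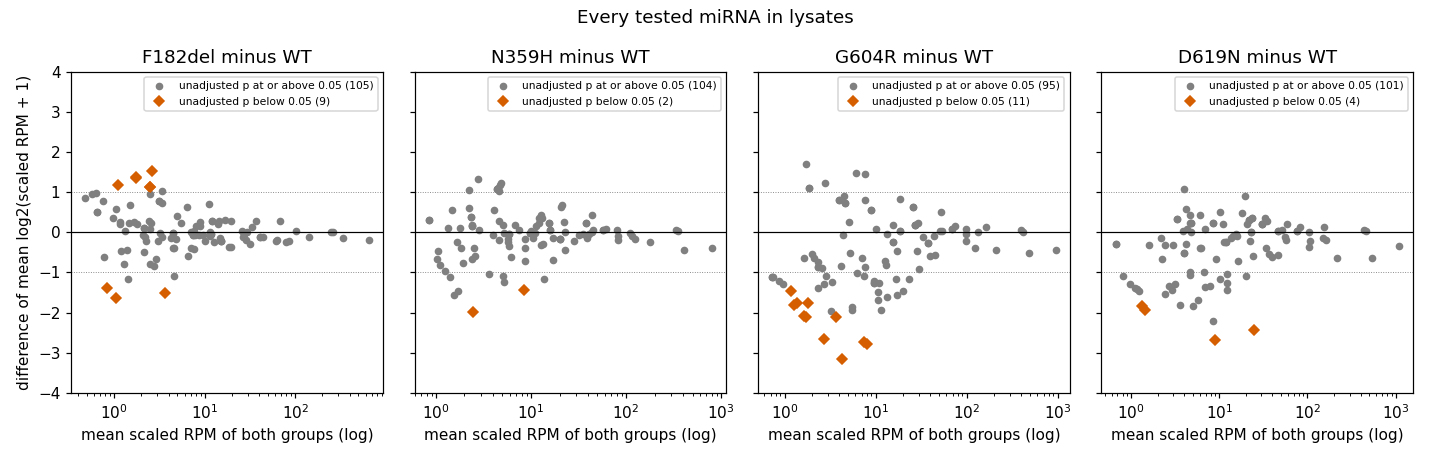
Difference of mean log2(scaled RPM + 1), variant minus WT-AGO2 (y axis), against the mean scaled RPM of both groups (x axis, log scale) for every tested miRNA in the 4 comparisons, with diamonds where the unadjusted p of limma was below 0.05. The diamonds (9, 2, 11 and 4) sit towards low levels, none of them passed adjustment, and differences narrow towards 0 at high levels.

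Mir-374-P2_5p had the lowest p over all variants and lay close to the threshold. It was called over all variants with a pseudocount of 0.5 RPM, without the filter, with the 12 variant libraries as 1 group, and without F182del replicate 3, N359H replicate 2 or D619N replicate 2. It had 4, 2 and 2 reads with WT-AGO2, 6 reads in N359H replicate 2, the deepest library, and was listed at 0 in the other 11 variant libraries. Its log2 difference was -1.72 ± 0.41 (SE; adjusted p of limma 0.0597). At its mean percentage with WT-AGO2, 6.63 reads would have fallen on the 3 F182del, 2.42 on the G604R and 3.23 on the D619N libraries. The mean of 1.73 RPM with WT-AGO2 was under the limit of 3 reads in each of these groups (2.20 RPM for F182del), so no fold is given.

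Let-7-P1c_5p, a let-7 guide, had 6, 3 and 2 reads with WT-AGO2 and none listed with F182del or G604R. N359H had 0, 3 and 0 reads and D619N 0, 2 and 0, so that D619N replicate 2, at 0.103% of mature reads, lay above the WT-AGO2 range of 0.0639 to 0.0728%. The limit of 3 reads over the F182del libraries was 2.20 RPM, and only WT-AGO2 replicate 1 (3.65 RPM) was above it, so no fold is given. Its log2 differences were -1.63 ± 0.44 (SE) for F182del and -2.09 ± 0.46 for G604R, with adjusted p of limma of 0.474 and 0.0607.

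Mir-197_3p had 17, 10 and 3 reads with WT-AGO2, 4, 8 and 4 with F182del, 0, 11 and 4 with N359H, 0, 0 and 0 with G604R and 0, 2 and 5 with D619N. G604R was the one group without a read, and its difference was -3.16 ± 0.72 (SE; adjusted p of limma 0.0607). G604R replicate 1 could not show this guide, since 3 reads are 319 RPM there against a mean of 6.08 RPM with WT-AGO2. Over the 2 deeper G604R libraries, where 7.02 reads would have fallen at the WT-AGO2 percentage, the limit of 3 reads was 3.90 RPM. The WT-AGO2 libraries were at 10.3, 5.37 and 2.52 RPM, so that replicate 3 was below this limit and no fold is given.

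Mir-188-P2_5p had 10, 4 and 4 reads with WT-AGO2 and 0, 0 and 0 with G604R (-2.67 ± 0.58, SE; adjusted p of limma 0.0607), and 3, 0 and 4 with F182del. Mir-27-P3_3p, of a family that restrains adipocyte differentiation, had 6, 2 and 3 reads with WT-AGO2, 0, 0 and 0 with G604R (-2.10 ± 0.49; adjusted p of limma 0.0607) and 2, 0 and 0 with F182del. Both were listed at 0 in every G604R library, where 5.16 and 3.29 reads would have fallen at the WT-AGO2 percentage. The median difference of all tested miRNAs with G604R was itself -0.51, and it was -0.17 without G604R replicate 1, when limma called 0 of 104 miRNAs and the unadjusted p was under 0.05 for 17.

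Mir-10-P2b_5p, another member of the Mir-10 family, had 52, 19 and 27 reads with WT-AGO2 and 0, 2 and 24 with D619N. In percent of mature reads it was at 0.554, 0.431 and 0.983% with WT-AGO2 and at 0, 0.103 and 0.733% with D619N, so that the D619N library of replicate 3 lay inside the WT-AGO2 range. The difference was -2.43 ± 1.07 (SE; adjusted p of limma 0.860), and with the replicate number as a block this miRNA was called (adjusted p of limma 0.00192). Without D619N replicate 1, in which 3 reads are 0.367% of mature reads, the difference was -1.10 and not called, also not with the block. Mir-17-P1c_5p had 3, 2 and 2 reads with WT-AGO2 and 0, 0 and 0 with D619N (-1.83 ± 0.64; adjusted p of limma 0.794).

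For F182del, Mir-130-P4a_5p had 5, 5 and 7 reads against 4, 2 and 0 with WT-AGO2 (1.52 ± 0.53, SE; adjusted p of limma 0.517). For N359H, Mir-320-P1_3p, which is cut without Drosha, had 0, 4 and 0 reads against 9, 7 and 2 (-1.98 ± 0.78; adjusted p of limma 0.826), and Mir-96-P2_5p had 6, 20 and 0 against 30, 17 and 4 (-1.43 ± 0.67; adjusted p of limma 0.826). None of these was called.

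No member of a family was called in any comparison. Lists of families were described by their counts and the median log2 difference, beside a median of all tested miRNAs of -0.02 with F182del and also with N359H, -0.51 with G604R, -0.21 with D619N, -0.17 over all variants and -0.06 over all variants without the shallow libraries. Families were not tested as groups, and the sign of a rare member that passed the filter through 1 group is set by the filter. Paralogues that shared all values were counted as separate members, so counts of members are not counts of separate signals. Such paralogues occurred in the let-7, Mir-15, Mir-19, Mir-26, Mir-30, Mir-101, Mir-103, Mir-181, Mir-218 and Mir-320 families. The Mir-10 family took between 31.9 and 36.1% of mature reads with WT-AGO2 and between 19.7 and 37.0% with the variants, the lowest in the shallow D619N library. Its median over 4 members was -0.40 over all variants and -0.18 without the shallow libraries. The 14 tested members of the Mir-17, Mir-19 and Mir-92 families, which drive proliferation, had a median of -0.02 over all variants, with 7 above and 7 below 0. Their summed share was between 21.9 and 24.9% with WT-AGO2 and between 21.8 and 33.2% with the variants, the highest in the shallow D619N library.

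The 9 tested let-7 miRNAs had a median of -0.00 over all variants and -0.24 without the shallow libraries, in which the family took between 3.81 and 5.998% of mature reads against between 2.08 and 3.89% with WT-AGO2. The 8 tested members of the Mir-30 family were all below 0 over all variants (median -0.24) and with D619N (median -0.52), while 3 were above and 5 below 0 without the shallow libraries (median -0.08). In RPM as deposited, where the median of all miRNAs over all variants was 0.30, 5 members of the Mir-30 family were above and 3 below 0 over all variants and likewise with D619N. The Mir-181 family, known from lymphocyte development, took between 0.0728 and 0.490% of mature reads with WT-AGO2, between 0.454 and 0.612% with F182del and between 0.427 and 0.514% with N359H, which overlapped, and its median over 7 tested members was 0.16 over all variants. Mir-181-P1a_5p, its most abundant guide, had 16, 3 and 0 reads with WT-AGO2, 6, 4 and 5 with F182del and 3, 17 and 4 with N359H, and it shared all values with Mir-181-P1b_5p.

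The Mir-128 and Mir-218 families, which are enriched in neurons, had 4 of 4 tested members above 0 with G604R (median 0.59), with D619N (0.12) and over all variants (0.27, and 0.26 without the shallow libraries), and so had they in RPM as deposited. Mir-218-P2_5p and Mir-218-P4_5p shared all values, and Mir-128-P1_3p and Mir-128-P2_3p had the same differences with G604R and D619N. The 4 members were thus not 4 separate signals. The highest member of these families, Mir-128-P2_3p, was at 0.234, 0.567 and 0.437% of mature reads with WT-AGO2 and between 0.245 and 0.956% with the variants, which overlapped. The Mir-26 family, which represses the histone methyltransferase EZH2, and Mir-101 took between 2.59 and 2.91% of mature reads with WT-AGO2, between 3.58 and 3.67% with D619N and between 3.09 and 3.69% with N359H. These sums did not overlap WT-AGO2, but those of F182del (2.35 to 3.42%) and G604R (2.65 to 3.10%) did, and the sums were not tested. The 5 tested members were above 0 with D619N (median 0.36, none of them with an unadjusted p below 0.05). Among them, Mir-26-P1_5p and Mir-26-P4_5p shared all values, as did Mir-101-P1-v1_3p and Mir-101-P2-v1_3p. The 7 tested members of the Mir-15 and Mir-103 families were below 0 with F182del (median -0.12), and the 5 of Mir-21 and Mir-221 with G604R (median -1.08), of which 2 were above 0 in RPM as deposited. Over all variants, the median was -0.41 for the 7 tested members of the Mir-15 and Mir-103 families, -0.02 for the 5 of Mir-26 and Mir-101, -0.30 for the 6 of Mir-130 and Mir-148, -0.98 for the single tested Mir-320 member, -0.23 for the 4 of Mir-28, -0.84 for the 2 strands of Mir-423, -0.48 for the 3 of Mir-188 and Mir-362 and -0.11 for the 5 of Mir-21 and Mir-221. Without the shallow libraries these medians were -0.14, 0.15, -0.04, -0.38, -0.19, -0.87, -0.01 and 0.12. Guide strands had a median of -0.20 (103 tested) and passenger strands of -0.05 (15 tested) over all variants. With F182del these medians were -0.04 and 0.26 (11 of 15 passenger strands above 0), and with G604R they were -0.49 and -1.37 (2 of 8 above 0). The filter sets the sign of several of these passenger strands, so the medians do not compare the strands. Mir-582-v1_3p*, Mir-374-P2_3p* and Mir-1910_5p* passed it for F182del while listed at 0 in all WT-AGO2 lysates. Mir-1307_3p*, Mir-193-P1b_3p* and Mir-21_3p* passed it for G604R while listed at 0 in all G604R lysates.

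The miRNAs that differed between a variant and WT-AGO2 in IP were then followed into the lysate. With the same test, 7 of 133 miRNAs (5.26%) were called in IP of F182del, 6 of 123 (4.88%) in IP of G604R, 18 of 123 (14.6%) in IP of D619N and 0 of 123 (0.0%) in IP of N359H, where 6 had an unadjusted p below 0.05 in limma. The study used DESeq and called more miRNAs in IP of F182del and D619N. It also called some for N359H, among them Mir-375_3p. The miRNAs that only the study called were not all followed here. Of the called miRNAs, 6, 2 and 12 could be tested in the lysate of the same variant, and limma called 0 there (0, 1 and 0 with an unadjusted p below 0.05). The difference between IP and lysate itself was not tested, and the pseudocount limits how far a rare miRNA can differ in the lysate, so that the sizes in IP and lysate are not comparable for such miRNAs.

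For D619N, Mir-221-P1a_3p, a guide that lowers the cell cycle inhibitor p27, had 60, 53 and 40 lysate reads with WT-AGO2 and 5, 24 and 46 with D619N, or 0.639, 1.20 and 1.46% against 0.612, 1.24 and 1.41% of mature reads. The groups overlapped over most of their range, with a lysate difference of -0.19 ± 0.44 (SE; interval from -1.17 to 0.79) beside -2.18 in IP. Mir-92-P1d_3p was at -0.19 ± 0.29 in the lysate and -1.18 in IP, Mir-30-P2a_5p at -0.39 ± 0.36 and -1.57, and Mir-92-P2d_3p at 0.14 ± 0.28 and 1.25. For Mir-92-P1d_3p and Mir-92-P2d_3p the lysate interval lay within 1 log2 unit of 0. Without the shallow D619N replicate 1, Mir-92-P1d_3p was at -0.46 ± 0.26 (interval from -1.04 to 0.11), so its interval then reached beyond 1 log2 unit. Mir-1307_5p had 26, 7 and 11 lysate reads with WT-AGO2 and 3, 0 and 9 with D619N (-1.26 ± 1.07 beside -6.16 in IP), Mir-577_5p had 14, 10 and 10 against 0, 4 and 14 (-1.05 ± 1.12 beside -3.22), and Mir-197_3p was at -1.36 ± 1.09 beside -5.56. For these rarer guides the lysate intervals reached beyond 3 log2 units below 0, so a lower lysate level was not detectable at this depth.

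The other D619N miRNAs called in IP and tested in the lysate were Mir-423_5p (-0.65 ± 1.15 in the lysate beside 1.23 in IP), Mir-28-P1_3p (0.51 ± 0.65 beside 1.25), Mir-362-P2-v1_3p (-0.14 ± 1.02 beside -4.92), Mir-188-P3_5p (-1.29 ± 1.07 beside -5.88) and Mir-30-P1d_3p* (-1.40 ± 0.70 beside -5.57). The other 6 called in IP, among them Mir-652_3p with 4 lysate reads with WT-AGO2 and 0 with D619N, were too rare in the lysate for the test. Values with SE are log2 differences with the SE of limma.

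For F182del, Mir-423_5p had 15, 5 and 6 lysate reads with WT-AGO2 and 6, 4 and 8 with F182del, and its log2 difference was -0.16 ± 0.47 (SE) beside 1.76 in IP. Mir-423_3p had 18, 16 and 16 against 18, 15 and 12 reads (0.02 ± 0.43 beside 1.24), and its lysate interval lay within 1 log2 unit of 0. Mir-345_5p had 27, 9 and 8 against 12, 14 and 14 reads (0.26 ± 0.34 beside -1.22). Mir-671_3p, at 8, 2 and 0 against 4, 0 and 3 reads, was at 0.26 ± 0.71 beside 1.96, and the passenger strands Mir-374-P2_3p* and Mir-582-v1_3p* were listed at 0 in all WT-AGO2 lysates, with 5 and 4 reads in those of F182del. Groups overlapped for each of these guides.

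For G604R, Mir-361-v1_5p had 2, 2 and 3 lysate reads with WT-AGO2 and 0, 0 and 0 with G604R (-1.77 ± 0.52, SE; adjusted p of limma 0.165) beside -4.28 in IP. Where 2.65 reads would have fallen on the G604R lysates, a count of 0 does not set the groups apart. Mir-28-P1_5p had 6 against 0 reads in all (-1.21 ± 0.54; adjusted p of limma 0.341) beside -3.69 in IP. Mir-361-v1_3p*, Mir-340_3p* and, for F182del, Mir-193-P1a_5p* were listed at 0 in all 15 lysates, where 3 reads are between 0.721 and 5.21 RPM in the deeper libraries. Mir-1910_5p* was listed at 0 in the WT-AGO2 lysates and had 10 reads in 4 variant lysates.

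The remaining guides that the study describes had no call in the lysate. Mir-589_5p had 13, 7 and 7 reads with WT-AGO2, 2, 6 and 0 with F182del, 5, 20 and 5 with N359H, 0, 3 and 4 with G604R and 4, 4 and 4 with D619N. Its F182del libraries were all below WT-AGO2 in reads (-1.51 ± 0.60, SE; adjusted p of limma 0.517), and its difference over all variants was -0.67 ± 0.77. Mir-769_5p had 39, 7 and 15 reads with WT-AGO2 and 0, 4 and 3 with G604R (-1.92 ± 1.05; adjusted p of limma 0.534), and its differences for F182del, N359H and D619N were -0.21 ± 0.44, -0.32 ± 0.44 and 0.22 ± 0.49. Mir-375_3p had 6 reads with WT-AGO2 in all and at most 4 in any library.

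The ratio of passenger to guide strand was compared for hairpins of which each strand was above 1 CPM in at least 2 libraries of a group. The 2 strands could pass through different groups, so they need not occur in the same library. It was taken in CPM of mature miRNA reads plus 1, on the log2 scale, and called by limma at an adjusted p below 0.05. With F182del 1 of 14 hairpins was called (7.14%), over all variants 1 of 15 (6.67%), and with N359H, G604R and D619N 0 of 12, 0 of 11 and 0 of 11 (0.0% each), and 0 hairpins of these had an unadjusted p below 0.05 in limma. The called hairpin was Mir-374-P2 in both, towards the passenger strand, with an adjusted p of limma of 0.0341 for F182del and 0.0107 over all variants. Its guide Mir-374-P2_5p had 4, 2 and 2 reads with WT-AGO2 and none with F182del, and its passenger Mir-374-P2_3p* had none with WT-AGO2 and 2, 3 and 0 with F182del, so that few reads carry the call and the ratio has no usable size. No lysate had reads of both strands, and only F182del lysates had reads of the passenger. The guide passed the filter through WT-AGO2 and the passenger through F182del, so the filter set the direction of this call. Where neither strand had a read, the ratio came from the added CPM alone. The call thus does not show a strand shift with F182del or over all variants. The call was lost without F182del replicate 1 (adjusted p of limma 0.843) or 2 (0.880), without WT-AGO2 replicate 2 (0.147) or 3 (0.129), and with the replicate block (0.0771), and without WT-AGO2 replicate 1 another hairpin, Mir-10-P1c-v1, was called (0.00423). Leaving out 1 library also gave 1 call for G604R (Mir-1307 without WT-AGO2 replicate 2, Mir-148-P1 without G604R replicate 1) and 1 for D619N (Mir-28-P1 without WT-AGO2 replicate 2, Mir-30-P1d without WT-AGO2 replicate 3, Mir-148-P1 without D619N replicate 3). Over all variants it was lost without the shallow libraries (adjusted p of limma 0.0514) and without the same 4 libraries one at a time (between 0.0527 and 0.972).

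For some miRNAs, lysates with the same replicate number resembled each other across the groups. This did not hold for every library. In deviations from the group means over 51 abundant miRNAs, G604R replicate 3 had r = -0.12 with WT-AGO2 replicate 3 and 0.34 with replicate 2. The labels do not say what a number shares. Mir-10-P1b-v1_5p was between 12.7 and 13.6% of mature reads in the 5 libraries of replicate 2 and between 8.44 and 9.61% in the 5 of replicate 3, with no overlap. Mir-10-P2b_5p was between 0.103 and 0.472% in replicate 2 and between 0.729 and 1.18% in replicate 3. In all, 8 of 135 miRNAs (5.93%) did not overlap between replicates 2 and 3, among them Mir-10-P1c-v1_5p and Mir-192-P2_5p (higher in replicate 2) and Mir-92-P1c_3p, Mir-1307_5p, Mir-22-P1b_3p and Mir-15-P1a_5p (higher in replicate 3). Between replicates 1 and 2 there were 9 (6.67%) and between replicates 1 and 3 there were 3 (2.22%), and replicate 1 held the shallow libraries. Among the 9, Mir-218-P2_5p and Mir-218-P4_5p shared all values, as did Mir-181-P1a_5p and Mir-181-P1b_5p. Mir-92-P1d_3p, which was called in IP of D619N, was between 3.80 and 6.28% in replicate 1 and between 2.40 and 3.46% in the other two.

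**Figure D5:**
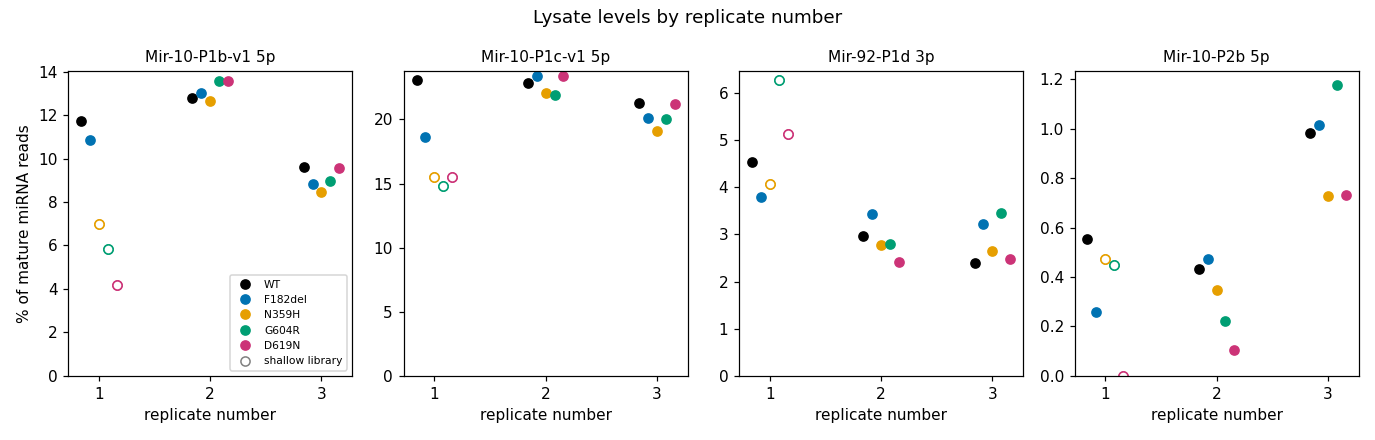
Percent of mature miRNA reads (y axis, from 0) of 4 miRNAs by replicate number (x axis), with 1 point for each of the 5 groups and open points for the shallow libraries. For Mir-10-P1b-v1_5p, Mir-10-P1c-v1_5p and Mir-10-P2b_5p the points of replicate 2 and replicate 3 do not overlap, and for Mir-92-P1d_3p replicate 1 (3.80% or more) lies above both others.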

How the data were processed

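Small RNA of 15 HEK293T lysates was sequenced as single-end reads of 36 bases (TruSeq small RNA libraries). The authors assigned reads with a mean Phred quality of at least 20 to MirGeneDB miRNAs with sRNAbench, and the deposited RPM are scaled to all reads of a library. The authors compared groups with DESeq. From the RPM, total reads and whole reads for each miRNA were worked out (tolerance 0.001), but a 0 may hold a single read, so that no count test was run. RPM were scaled by the median of ratios, and log2(RPM + 1) was fitted with limma 3.58.1 (R 4.3.3, trended variance) for miRNAs above 1 scaled RPM in at least 2 libraries of a group, with Benjamini-Hochberg adjustment over all tested. The comparison over all variants weighed the 4 groups alike. Intervals are at 95%, and intervals and limits from reads cover counting error only. Shares were compared by exact permutation tests over libraries (scipy 1.17.1). Scripts were tested on simulated data, but a recovery was required only at a depth far above that of these libraries. The test thus sets no recovery at the real depth. The samples, miRNAs and lists were chosen with earlier results of these data known. Named are the 10 miRNAs with the highest mean RPM, the 3 with the lowest p in each comparison, those the study names, the highest members of the lists, and those called in IP, and the hairpins and the Mir-26 and Mir-101 sums were singled out after their values were seen.

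Same-numbered WT-AGO2 and variant libraries deviated together from their group means over 51 abundant miRNAs for F182del (r = 0.20, 0.36 and 0.37), N359H (0.51, 0.57 and 0.25) and D619N (0.36, 0.35 and 0.26). For G604R (0.26, 0.25 and -0.12) this held for replicates 1 and 2 but not for replicate 3. The main fits and share tests did not use this pairing. It entered only the replicate block and the shares paired by replicate number. Of the 135 miRNAs, 30 shared all values with another, in 14 sets, and 634 of 2025 values were 0. Each of the 30 was counted as a miRNA of its own in every count and share given here. Alternatives were another pseudocount (0.5 or 10 RPM), no filter, a mean of at least 10 RPM, RPM as deposited, scaling to mature miRNA reads, array weights, a replicate block, a joint fit, and leaving out libraries.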

Additional observations from a re-analysis of the deposited data

How the results depend on the processing

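The ratio of miRNA shares, variant to WT-AGO2, crossed 1 without the shallow libraries (0.783 for N359H, 0.680 for G604R, 0.957 for D619N and 0.814 over all variants) and, for F182del, without WT-AGO2 replicate 1 (1.23). Without replicate 1 of every group, which was added after seeing the data, the ratio was 1.42 for D619N, 1.23 for F182del, 1.16 for N359H, 1.01 for G604R and 1.20 over all variants, and no share difference passed a test. Leaving out 1 library gave ratios of 0.711 to 1.23 for F182del, 0.783 to 2.80 for N359H, 0.680 to 7.44 for G604R, 0.957 to 7.75 for D619N and 2.29 to 4.80 over all variants. Counts of called miRNAs stayed at 0 for F182del and N359H in each alternative, ranged from 0 to 11 for G604R, 0 to 5 for D619N and 0 to 2 over all variants when 1 library was left out, and were 5 for G604R with a pseudocount of 0.5 RPM and 1 over all variants with that pseudocount, without the filter, or with the 12 variant libraries as 1 group. Strand ratio calls ranged from 0 to 1 for F182del, G604R, D619N and over all variants when 1 library was left out, and were 0 for F182del without variance moderation and 0 over all variants without the shallow libraries. With the replicate block 1 miRNA was called for D619N and the strand call of F182del went to 0, and the block changed no other call. The block together with leaving out the shallow libraries, added after seeing the data, called 2 miRNAs for G604R. It called 0 for N359H, D619N and over all variants, with lowest adjusted p of limma of 0.00196, 0.660 and 0.408. For N359H a miRNA thus passed adjustment in this setting, but its log2 difference was not more than 1 in either direction. Of 3697 values of named miRNAs under these alternatives 311 changed sign without being called in either, 0 reversed a call and 39 became called. RPM as deposited moved the median log2 difference of all miRNAs to -0.10 (F182del), 0.61 (N359H), 0.41 (G604R), 1.05 (D619N) and 0.30 (over all variants). The cause of these changes was not tested. The planned edgeR and DESeq2 fits were not run, since whole reads could not be established. Depth limits what the shallow libraries show, since 1 read was 106 RPM for G604R replicate 1 and 58.4 RPM for D619N replicate 1.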
